A study of Homo sapiens with 9 samples.

Results

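Long noncoding RNA genes and small nucleolar RNA (snoRNA) genes were examined after knockdown of PVRL4 in SKBR3 cells, a line of human breast carcinoma that carries extra copies of ERBB2. The genes were taken by symbol: TUG1, H19, every symbol that begins with LINC, SNHG, SNORA or SNORD, and every symbol that ends in -AS1 or -IT1, with a mean of at least 1 RPM (a gene's read count after scaling every library to one total) over the 9 libraries. The rule gave 126 genes of the 11158 that reached that mean and of 20812 in the table. They are TUG1, H19, 21 LINC genes, 11 SNHG genes, 26 -AS1 genes, 62 SNORA genes and 4 SNORD genes. A further 300 matching symbols, of which 139 had no read in any library, did not reach the mean, among them all 3 -IT1 genes. CEBPA-AS1 (1.05 RPM), FUT8-AS1 (1.05 RPM) and SNORA39 (1.05 RPM) lay just above the limit, and SNHG10 (0.997 RPM), LINC00638 (0.961 RPM) and BCDIN3D-AS1 (0.941 RPM) just below it.

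Cells were transfected with 10 nM of PVRL4 siRNA 1, PVRL4 siRNA 2 or a non-targeting control siRNA and treated for 48 h, with 3 libraries per group numbered 1 to 3. The PVRL4 siRNAs and the control siRNA came from different suppliers, so supplier and target cannot be told apart in a comparison with control. PVRL4, which encodes the adhesion molecule nectin-4, had 5.99, 4.36 and 4.67 RPM with siRNA 1, 3.39, 2.91 and 2.58 RPM with siRNA 2 and 9.93, 7.86 and 11.6 RPM in control. The labelled cell type was checked in summed markers of luminal epithelium and of the line (9 genes, ERBB2 included). They lay at 10070 to 10543 RPM with siRNA 1, 8717 to 9182 RPM with siRNA 2 and 10268 to 10987 RPM in control. The siRNA 2 sums lay below all others. Of the 9 genes, 8 reached a mean of 1 RPM, so the sum hides a marker below that mean. The median log2 change of these 8 against control was 0.06 with siRNA 1 and -0.22 with siRNA 2. In the test described below, 0 of the 8 passed against control. Summed leukocyte markers (6 genes, 1 at 0 in every library) were at most 1.16 RPM, summed endothelial markers (4 genes) 4.39 to 10.3 RPM and summed fibroblast markers (7 genes) 4.10 to 7.66 RPM in any library. Separate cultures are not stated for the replicates, so p-values measure only the spread between these libraries, which may be technical.

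snoRNAs are short nuclear RNAs that sit in protein complexes and choose, by base pairing, the nucleotides of ribosomal and spliceosomal RNA that are modified. Box H/ACA snoRNAs (SNORA genes) guide pseudouridylation and box C/D snoRNAs (SNORD genes) guide ribose methylation. In human cells most are cut out of introns of host genes, many of which encode ribosomal or translation proteins. SNHG genes are host genes whose spliced RNA is mostly noncoding and often short-lived. LINC and -AS1 RNAs are long transcripts between genes or antisense to a gene, and H19 and TUG1 are spliced, polyadenylated RNAs without a classical coding role, H19 being transcribed from the maternal allele of an imprinted locus.

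The box H/ACA snoRNAs on which the results below turn are shown as DNA letters from 5′ to 3′, as annotated in GENCODE release 29 (GRCh38). The first 6 are the snoRNAs that differed most by replicate number. SNORA7B stood first among the snoRNAs that were higher with both siRNAs, and SNORA7A is shown beside it as its near-identical copy. Capitals mark a match to the H box motif (ANANNA, the match nearest the middle in the middle stretch of the RNA) and, where present, the ACA triplet followed by exactly 3 bases at the 3′ end, both read on the RNA strand.
SNORA53: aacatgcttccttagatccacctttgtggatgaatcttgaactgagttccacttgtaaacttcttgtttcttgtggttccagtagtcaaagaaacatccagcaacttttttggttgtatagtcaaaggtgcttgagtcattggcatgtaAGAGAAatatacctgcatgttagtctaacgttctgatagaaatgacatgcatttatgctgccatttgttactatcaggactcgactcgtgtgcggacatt
SNORA64: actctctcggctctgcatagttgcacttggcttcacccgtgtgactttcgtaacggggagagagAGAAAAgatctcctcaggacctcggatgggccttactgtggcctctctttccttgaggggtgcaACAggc
SNORA63: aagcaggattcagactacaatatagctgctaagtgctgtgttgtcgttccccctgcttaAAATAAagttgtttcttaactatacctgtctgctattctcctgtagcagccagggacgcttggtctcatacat
SNORA9: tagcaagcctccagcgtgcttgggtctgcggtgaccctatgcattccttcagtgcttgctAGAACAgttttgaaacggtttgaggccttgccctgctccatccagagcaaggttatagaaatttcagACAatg
SNORA23: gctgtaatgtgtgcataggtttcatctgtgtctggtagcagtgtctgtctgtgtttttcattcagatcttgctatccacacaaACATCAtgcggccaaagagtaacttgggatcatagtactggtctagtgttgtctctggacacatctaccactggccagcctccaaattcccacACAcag
SNORA38: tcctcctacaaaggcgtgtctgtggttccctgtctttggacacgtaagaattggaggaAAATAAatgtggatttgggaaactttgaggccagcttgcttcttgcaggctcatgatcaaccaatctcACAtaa
SNORA7B: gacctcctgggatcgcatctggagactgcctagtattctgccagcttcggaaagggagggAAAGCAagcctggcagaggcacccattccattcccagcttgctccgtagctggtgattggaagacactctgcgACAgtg
SNORA7A: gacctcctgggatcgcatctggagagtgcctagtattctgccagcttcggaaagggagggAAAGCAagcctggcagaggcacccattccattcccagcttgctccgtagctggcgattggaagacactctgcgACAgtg
SNORA53, with 249 bases, and SNORA63, with 132 bases, have no ACA at that place. Among 149 SNORA transcripts of the same annotation 75.2% have it, against 1.39% of 288 SNORD transcripts. The H box motif was found in 94.0% of the SNORA transcripts and in 54.9% of the SNORD transcripts, so a match is a weak description. SNORA7A and SNORA7B share 137 of 139 bases (98.6%). They differ by G26C and C114T, with the base of SNORA7A first and positions counted from the 5′ end. The table has a row for SNORA7B, and reads of SNORA7A could not be told apart from it at an amplicon that covers neither position.

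One library stood apart in the snoRNAs. In PVRL4 siRNA 2 replicate 3 the 62 SNORA genes summed to 7252 RPM, against 3597 to 4918 RPM in the other 8 libraries, and the 4 SNORD genes to 140 RPM, against 60.2 to 77.8 RPM. It was the highest of the 9 libraries for 34 of 66 snoRNAs, whereas it was the highest for 12.5% of all genes tested, and 27 of the 66 were at least 1.5 times the median of the other 8 libraries. The class sums of the long RNAs showed no gap of that size, though a single gene could. SNHG5 had 34.4 RPM in that library, against 14.5 to 18.5 RPM in the other 8 libraries. That library was the highest for 2 of 21 LINC, 3 of 11 SNHG and 5 of 26 -AS1 genes. Its SNHG sum was also the highest, at 525 RPM against 418 to 487 RPM in the other libraries. Its -AS1 sum was 169 RPM against 143 to 168 RPM, and its LINC sum, 242 RPM, lay within their range of 230 to 261 RPM. Class medians, spreads and replicate-number means of snoRNAs are given with and without it. Comparisons without it and without the block leave siRNA 2 with no library numbered 3 while control keeps its own. In these, that library and its replicate number cannot be told apart.

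**Figure D1:**
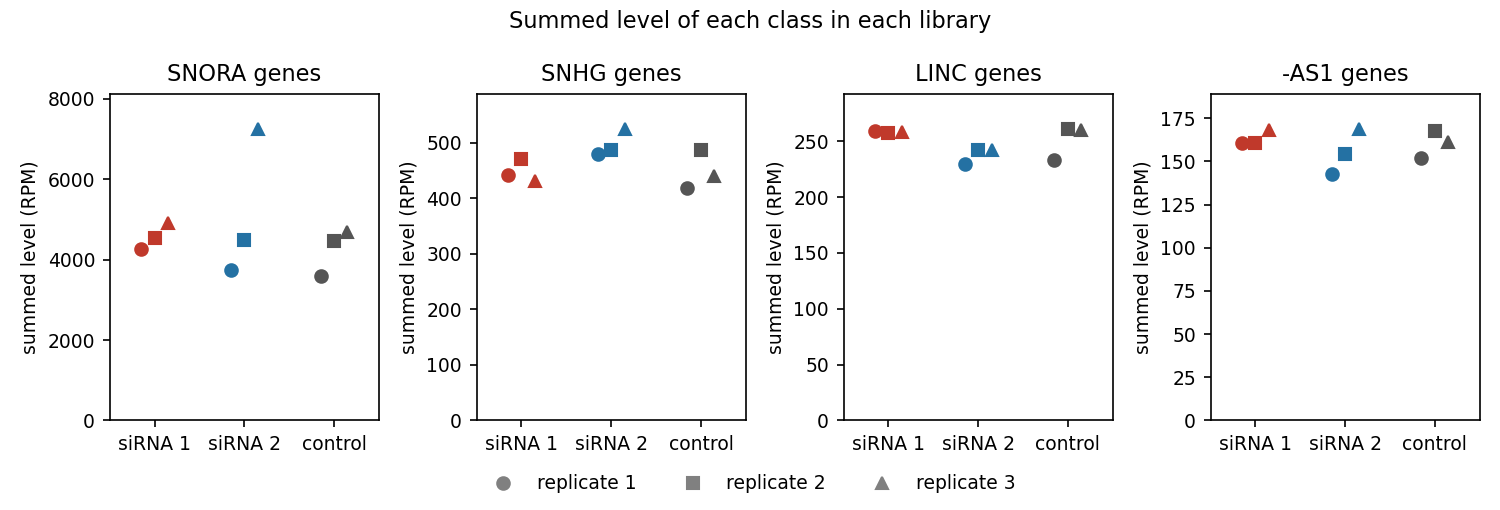
Summed level in RPM of the 62 SNORA, 11 SNHG, 21 LINC and 26 -AS1 genes in each library (points, shaped by replicate number) of the PVRL4 siRNA 1, PVRL4 siRNA 2 and control groups, on linear axes from 0. PVRL4 siRNA 2 replicate 3 lies at 7252 RPM for the SNORA genes, above the 3597 to 4918 RPM of the other 8 libraries, while the other classes show no such gap.

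All 126 genes together took 0.778% to 0.867% of the reads with siRNA 1, 0.769% to 1.13% with siRNA 2 and 0.817% to 0.921% in control. H19 and SNORA63 held most of these reads. Each gene is read at its own amplicon, so the order of levels between genes is an order of amplicon reads, not of RNA amount per length. Among the LINC genes the highest were LINC00493 (68.4 RPM over the 9 libraries, annotated by RefSeq as the protein-coding SMIM26), LINC00674 (62.9 RPM), LINC00221 (39.4 RPM) and LINC00265 (14.4 RPM). Among the SNHG genes they were SNHG16 (271 RPM), SNHG4 (40.8 RPM), SNHG11 (30.1 RPM) and SNHG6 (25.5 RPM). Among the -AS1 genes they were THAP9-AS1 (40.9 RPM), RSBN1L-AS1 (26.1 RPM), FOXN3-AS1 (11.6 RPM) and GAS5-AS1 (10.5 RPM). Among the snoRNAs they were SNORA63 (2058 RPM), SNORA71C (440 RPM), SNORA71D (279 RPM) and SNORA8 (249 RPM). The class medians were 3.85 RPM for LINC, 18.7 RPM for SNHG, 3.41 RPM for -AS1 and 7.76 RPM for SNORA genes. RefSeq lists 66 of the 126 as snoRNAs, 56 as long noncoding RNAs and 4 as protein coding, which are TUG1, LINC00493, LINC00094 and LINC00085.

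TUG1 fell with siRNA 1, and no other gene of the 126 passed the test without the replicate number in either comparison with control. limma on log2(RPM + 1) with Benjamini-Hochberg adjustment over all 11158 genes, at a threshold of 0.05, called 0 of the 126 higher with siRNA 1 than in control, where 0.636% of all genes were called higher, and 1 lower, where 0.215% were. With siRNA 2 against control it called 0 higher (0.0358% of all genes) and 0 lower (0.645% of all genes). siRNA 2 against siRNA 1 gave 1 higher (0.592% of all genes), again TUG1, and 0 lower (2.46% of all genes). At an unadjusted p under 0.05, limma had 7 higher and 4 lower with siRNA 1 against control (3.26% and 2.78% of all genes), 6 and 3 with siRNA 2 against control (2.49% and 6.93%), and 6 and 3 for siRNA 2 against siRNA 1 (5.05% and 10.1%). The quasi-likelihood test of edgeR on whole reads recovered from the RPM values gave the same counts of adjusted calls. DESeq2 on those reads gave 0 higher and 2 lower with siRNA 1, 1 higher and 0 lower with siRNA 2, and 1 higher and 0 lower between the siRNAs.

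TUG1, a long RNA named for its response to taurine in the developing mouse retina, had 99.2, 102 and 102 RPM with siRNA 1, 156, 153 and 141 RPM with siRNA 2 and 175, 169 and 160 RPM in control. The siRNA 1 libraries lay close together and below all others, and the siRNA 2 libraries lay between those and control without overlap on either side. The log2 change with siRNA 1 was -0.73 (SE 0.09, n = 3 libraries a group), which is 0.604 of control, with a limma adjusted p of 0.000809. siRNA 2 against control gave -0.16 (95% interval -0.36 to 0.03, limma adjusted p = 0.642). The difference between the siRNAs was itself past the threshold: 0.56 higher on the log2 scale with siRNA 2 than with siRNA 1 (SE 0.09, limma adjusted p = 0.00417). Within each replicate number TUG1 stood at 56.7%, 60.7% and 63.5% of its control with siRNA 1 and at 89.4%, 90.8% and 87.7% with siRNA 2. Both calls held in each of the 21 alternative settings run for them, with adjusted p up to 0.0151 for siRNA 1 against control and up to 0.0266 for siRNA 2 against siRNA 1.

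The siRNA 1 libraries also differed from the others in genes of the interferon response, whose sum over 15 genes was 6055, 875 and 2685 RPM with siRNA 1, 147, 147 and 222 RPM with siRNA 2 and 138, 141 and 143 RPM in control. Of these, 13 of 15 were called higher with siRNA 1. TUG1 differed little among the 3 siRNA 1 libraries, while that sum ranged from 875 to 6055 RPM, and the part of either in the other was not tested.

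**Figure D2:**
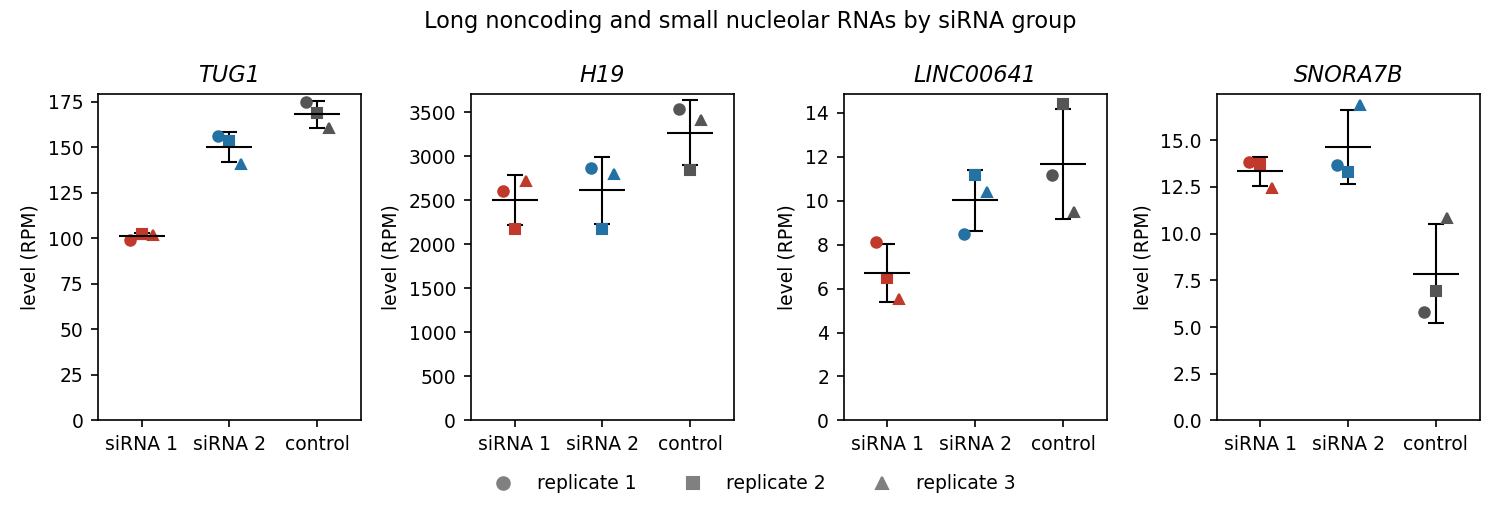
Level in RPM of TUG1, H19, LINC00641 and SNORA7B in each library (points, shaped by replicate number) of PVRL4 siRNA 1, PVRL4 siRNA 2 and control, with the group mean (long dash) and SD (error bar, n = 3), on linear axes from 0. TUG1 lies at 99.2 to 102 RPM with siRNA 1, apart from both other groups, while H19, LINC00641 and SNORA7B did not pass the test without the replicate number.

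H19 had 2601, 2180 and 2725 RPM with siRNA 1, 2864, 2175 and 2797 RPM with siRNA 2 and 3539, 2846 and 3412 RPM in control. All siRNA 1 libraries were below all controls, while the highest of siRNA 2, at 2864 RPM, was above control replicate 2. Replicate 2 was the lowest library of every group. The log2 changes were -0.38 (SE 0.13, limma adjusted p = 0.407) with siRNA 1 and -0.33 (SE 0.13, limma adjusted p = 0.418) with siRNA 2. With the replicate number as a block, used because libraries of the same number deviated together, the limma adjusted p values were 0.0142 and 0.0313. Within the numbers H19 stood at 73.5%, 76.6% and 79.9% of control with siRNA 1 and at 80.9%, 76.4% and 82.0% with siRNA 2, so all 6 were below their own control. Leaving out 1 library in the blocked fit kept the siRNA 1 call in 3 of 9 settings and the siRNA 2 call in 2 of 9. siRNA 2 against siRNA 1 gave 0.06 (95% interval -0.22 to 0.34).

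With the block the counts of calls were 2 higher and 3 lower with siRNA 1 against control (1.17% and 0.681% of all genes), 1 higher and 1 lower with siRNA 2 against control (0.457% and 2.95%), and 2 higher and 0 lower for siRNA 2 against siRNA 1 (2.81% and 6.52%). The genes added by it were H19, SNORA7B, SNHG9, LINC00641 and LINC00052, described here with both values. Groups did not overlap for 8 higher and 6 lower genes with siRNA 1 against control (6.40% and 5.59% of all genes), for 11 and 4 with siRNA 2 against control (4.99% and 8.95%), and for 9 and 3 between siRNA 2 and siRNA 1 (7.04% and 12.6%).

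Among the LINC genes, LINC00641 had 8.11, 6.49 and 5.51 RPM with siRNA 1, 8.49, 11.1 and 10.4 RPM with siRNA 2 and 11.2, 14.4 and 9.46 RPM in control. The siRNA 1 libraries lay below all 6 others. The log2 change with siRNA 1 was -0.71 (SE 0.19, limma adjusted p = 0.146, and 0.0323 with the block), and siRNA 2 was 0.52 above siRNA 1 (SE 0.19, limma adjusted p = 0.183). DESeq2 called it lower with siRNA 1 (adjusted p = 0.0356). The blocked call held in 3 of 9 settings that left out 1 library.

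LINC00052 had 1.20, 2.13 and 2.67 RPM with siRNA 2, 0.580, 0.678 and 0.934 RPM with siRNA 1 and 0.954, 1.14 and 1.18 RPM in control. The groups did not overlap, with siRNA 2 highest and siRNA 1 lowest, at levels near that of a few reads. siRNA 2 was 0.77 above siRNA 1 on the log2 scale (SE 0.23, limma adjusted p = 0.110, and 0.0367 with the block), a blocked call that held in 3 of 9 settings that left out 1 library. LINC00338, annotated by RefSeq as SNHG20, had 9.08, 6.49 and 6.91 RPM with siRNA 1 and 5.92, 5.02 and 4.73 RPM in control, a log2 change of 0.44 (SE 0.17, limma adjusted p = 0.605). LINC00674 had 51.8, 60.4 and 53.2 RPM with siRNA 2, 61.8, 75.2 and 61.3 RPM with siRNA 1 and 58.0, 74.7 and 69.6 RPM in control. Its siRNA 2 libraries overlapped control but not siRNA 1, and its log2 changes were -0.28 against control (limma adjusted p = 0.506) and -0.25 against siRNA 1 (limma adjusted p = 0.365).

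The other LINC genes named by the smallest p values were LINC00263, LINC00085 and LINC00623. LINC00263, the oligodendrocyte-associated OLMALINC of current annotation, changed by -0.41 and LINC00085, SPACA6 in current annotation, by -0.36 on the log2 scale with siRNA 2 against control (limma adjusted p = 0.555 and 0.591). LINC00623 differed by -0.55 between siRNA 2 and siRNA 1 (limma adjusted p = 0.255). As a class, 8 of 21 LINC genes were above 0 with siRNA 1 (median log2 change -0.024) and 8 of 21 with siRNA 2 (median -0.15), where 53.9% and 45.4% of all genes tested were above 0 with medians of 0.014 and -0.022. The LINC median for siRNA 2 against siRNA 1 was -0.17, with 5 of 21 above 0, beside a median of -0.039 over all genes.

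**Figure D3:**
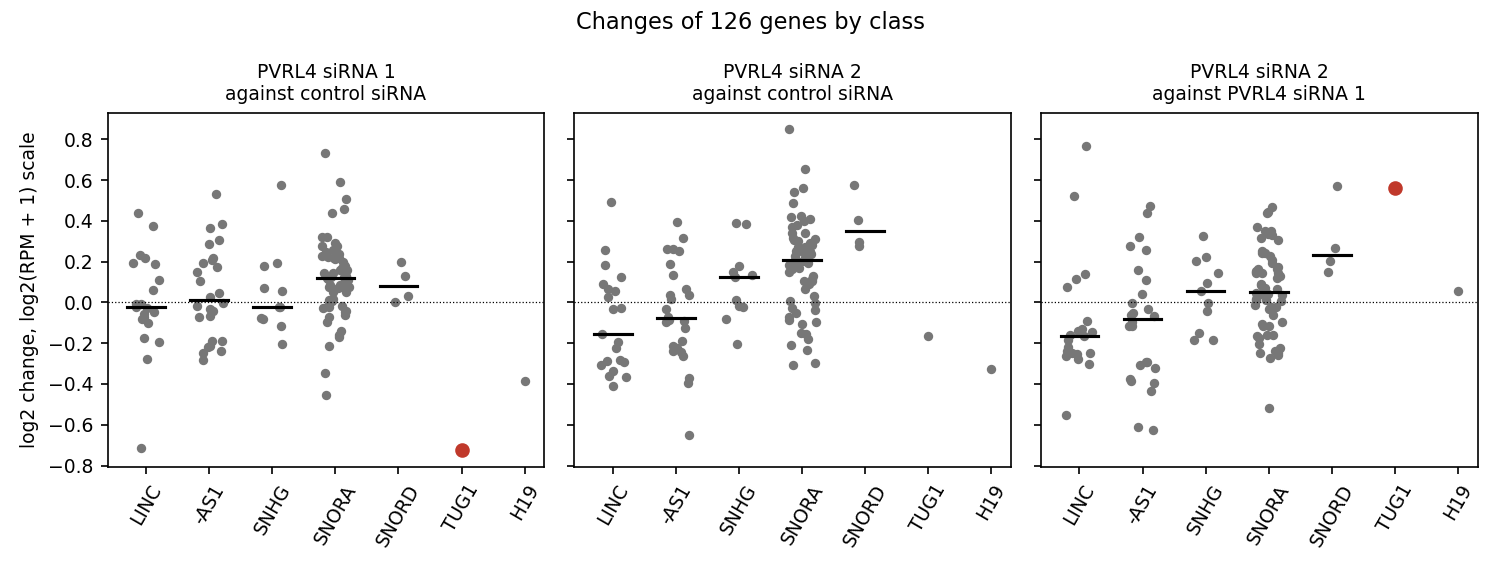
Log2 change of each of the 126 genes (points) on the log2(RPM + 1) scale by class, with the class median as a bar. The panels compare siRNA 1 with control, siRNA 2 with control, and both siRNAs with each other, and red points have a limma adjusted p under 0.05. TUG1 is the red point at -0.73 in the first panel and at 0.56 in the third, and the siRNA 2 panel against control has none.

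SNHG genes showed no call against control or between the siRNAs in the fit without the block. SNHG9, the host of a box H/ACA snoRNA beside the RPS2 gene, had 12.4, 11.6 and 14.6 RPM with siRNA 1, 9.38, 10.1 and 14.5 RPM with siRNA 2 and 8.30, 6.35 and 10.5 RPM in control. siRNA 1 lay above control in every library and siRNA 2 overlapped it. The log2 changes were 0.58 with siRNA 1 (SE 0.20, limma adjusted p = 0.421, and 0.0475 with the block) and 0.39 with siRNA 2 (limma adjusted p = 0.586). The blocked call held in 2 of 9 settings that left out 1 library.

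SNHG16 had 293, 287 and 306 RPM with siRNA 2, 251, 270 and 248 RPM with siRNA 1 and 256, 273 and 253 RPM in control. Its siRNA 2 libraries lay above all 6 others. siRNA 2 was 0.20 above siRNA 1 on the log2 scale (SE 0.09, limma adjusted p = 0.280) and 0.18 above control (limma adjusted p = 0.547). SNHG4, SNHG11 and SNHG6 overlapped between all groups. Of the 11 SNHG genes, 5 were above 0 with siRNA 1 (median log2 change -0.020) and 7 with siRNA 2 (median 0.12). Without PVRL4 siRNA 2 replicate 3 it was 6 with siRNA 2 (median 0.055).

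The -AS1 genes had no call in any of these comparisons. The labels give no strand for the counting, so reads of an antisense gene and of its sense partner cannot be told apart where they overlap. MAPKAPK5-AS1 had 8.98, 9.59 and 8.97 RPM with siRNA 1 and 11.4, 10.7 and 11.1 RPM in control, without overlap, a log2 change of -0.25 (SE 0.16, limma adjusted p = 1.00), while MAPKAPK5, a protein kinase gene, changed by 0.04. DHRS4-AS1 changed by -0.65 with siRNA 2 against control (SE 0.28, limma adjusted p = 0.483) and its sense gene DHRS4, a carbonyl reductase, by 0.16. SLC2A1-AS1 and RHPN1-AS1 differed by -0.63 and -0.61 on the log2 scale between siRNA 2 and siRNA 1 (limma adjusted p = 0.281 and 0.329), beside 0.06 for both SLC2A1, the glucose transporter gene, and RHPN1. TPT1-AS1 was 0.44 above siRNA 1 with siRNA 2 (limma adjusted p = 0.322), beside 0.23 for TPT1. Pairs were formed by symbol, and RHPN1-AS1, CEBPA-AS1, RSBN1L-AS1 and ZNF674-AS1 overlap no gene of the table on the other strand. Both genes were tested in 22 pairs. Their changes had the same sign in 9 pairs with siRNA 1, 11 pairs with siRNA 2 and 13 pairs between the siRNAs. limma called 0 of the 22 partner genes in each comparison.

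Among the snoRNAs, SNORA7B had 13.8, 13.8 and 12.4 RPM with siRNA 1, 13.7, 13.3 and 16.9 RPM with siRNA 2 and 5.82, 6.92 and 10.8 RPM in control. Both siRNA groups lay above all controls, of which replicate 3 was the highest. The log2 changes were 0.73 with siRNA 1 (SE 0.19, limma adjusted p = 0.142, and 0.0248 with the block) and 0.85 with siRNA 2 (SE 0.19, limma adjusted p = 0.0733, and 0.00746 with the block). Both passed without control replicate 3 (limma adjusted p = 0.0283 and 0.0231). With other libraries left out, the unblocked limma adjusted p rose to as much as 0.643 with siRNA 1 and 0.282 with siRNA 2. DESeq2 called SNORA7B higher with siRNA 2 (adjusted p = 0.0101). In the blocked fit it was called in 5 of 9 settings that left out 1 library with siRNA 1 and in 7 of 9 with siRNA 2. Without PVRL4 siRNA 2 replicate 3 the unblocked siRNA 2 change was 0.75 (limma adjusted p = 0.206). The 2 comparisons share the control libraries.

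SNORA10, a guide encoded like SNORA64 in an intron of RPS2, had 18.6, 14.6 and 15.9 RPM with siRNA 1, 16.4, 12.8 and 22.2 RPM with siRNA 2 and 8.97, 12.6 and 12.3 RPM in control. Neither siRNA group overlapped control, though siRNA 2 replicate 2 came close. The log2 changes were 0.51 and 0.54 (limma adjusted p = 0.559 and 0.346), and 0.35 with siRNA 2 without its replicate 3. SNORA84 had 7.75 to 10.5 RPM with siRNA 1 and 3.15 to 7.67 RPM in control. SNORA30 had 1.64, 1.45 and 1.40 RPM with siRNA 1 and 2.10, 2.27 and 2.96 RPM in control. Their log2 changes were 0.59 and -0.46 (limma adjusted p = 0.664 and 0.748). With siRNA 2 against control SNORA19 changed by 0.56, SNORA16A by 0.32 and the box C/D guide SNORD17 by 0.28 (limma adjusted p = 0.491, 0.488 and 0.472). SNORA70G differed by -0.52 between siRNA 2 and siRNA 1 (limma adjusted p = 0.368).

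As a class, 47 of 62 SNORA genes had a log2 change above 0 with siRNA 1, with a median of 0.12, and 47 of 62 with siRNA 2, with a median of 0.21. Without PVRL4 siRNA 2 replicate 3 the siRNA 2 count was 32 of 62 and the median 0.0032, beside 51.0% of all genes above 0. siRNA 2 then had no library numbered 3 while control did, so that library and its number cannot be told apart in this fall. The siRNA 1 count does not contain that library. With all libraries, 53.9% of all genes were above 0 with siRNA 1 and 45.4% with siRNA 2. Both comparisons use control replicates 1 and 3, which were the lowest of the 9 libraries for 18 and 13 of the 66 snoRNAs. How often they were lowest over all genes was not counted, so this may not be particular to snoRNAs. They were the highest for 8.99% and 6.28% of all genes. The part of these libraries in the class counts was not tested. All 4 SNORD genes were above 0 with both siRNAs (medians 0.08 and 0.35), and 3 of 4 with siRNA 2 without PVRL4 siRNA 2 replicate 3 (median 0.17). SNORD15B showed the gap plainly, with 18.4, 28.0 and 86.4 RPM with siRNA 2, 29.7, 31.4 and 27.5 RPM with siRNA 1 and 23.5, 29.7 and 34.2 RPM in control. SNORA genes had a higher median spread between libraries of a group than all genes had: at a mean level of 10 RPM or more the median within-group SD was 0.35 on the log2 scale for 29 SNORA genes and 0.16 for all 7934 genes. It was 0.23 and 0.15 without PVRL4 siRNA 2 replicate 3, and the residual SD with the replicate block was 0.28 and 0.12 with all libraries and 0.15 and 0.11 without that one.

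Some of these genes, most of them SNORA genes, also differed by replicate number. In a limma fit with group and replicate number, the F test of the number called 17 of the 126 genes (13.5%), where 9.77% of all genes were called, and 40 at an unadjusted p under 0.05, where 29.1% were. The 17 were 13 SNORA genes of 62 (21.0%), H19, SNHG4, RSBN1L-AS1 and FOXN3-AS1, with 0 LINC and 0 SNORD genes, of which 4 and 2 had an unadjusted p under 0.05. SNHG and -AS1 genes were called at 9.09% and 7.69%, not above the share of all genes. At an unadjusted p under 0.05 the SNHG share was larger, at 6 of 11 (54.5%), beside 29.1% of all genes. It was 24 of 62 (38.7%) for SNORA and 3 of 26 (11.5%) for -AS1 genes. The 40 genes with an unadjusted p under 0.05 are 31.7% of the 126, close to the share of all genes. What a replicate number stands for, such as a day or a passage, is not given in the labels. Of the 13 SNORA genes, 11 were highest in the libraries numbered 3, and 9 were lowest in those numbered 1 and 4 in those numbered 2. Without PVRL4 siRNA 2 replicate 3, 7 were highest in number 3, 4 in number 2 and 2 in number 1, and the counts of lowest were again 9 and 4. The test without it called 14 of the 126, all among the 17. The count was 11 without control replicate 1, without control replicate 2, without siRNA 2 replicate 1 or without siRNA 2 replicate 2.

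SNORA53 showed the widest difference. In the libraries numbered 1 it had 376 RPM with siRNA 1, 373 RPM with siRNA 2 and 235 RPM in control. In those numbered 2 it had 23.4 RPM with siRNA 1, 24.2 RPM with siRNA 2 and 21.6 RPM in control. In those numbered 3 it had 57.1 RPM with siRNA 1, 59.3 RPM with siRNA 2 and 83.2 RPM in control. No library of one number overlapped those of another, and the mean of number 1 (328 RPM) was 14.2 times that of number 2 (23.1 RPM), with a limma adjusted p of 2.71e-09 for the F test. The library that stood apart in the other snoRNAs did not do so here. SNORA53 lies in an intron of SLC25A3, the gene of the mitochondrial phosphate carrier, whose levels were 321 to 403 RPM in all 9 libraries (F test adjusted p = 0.551).

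**Figure D4:**
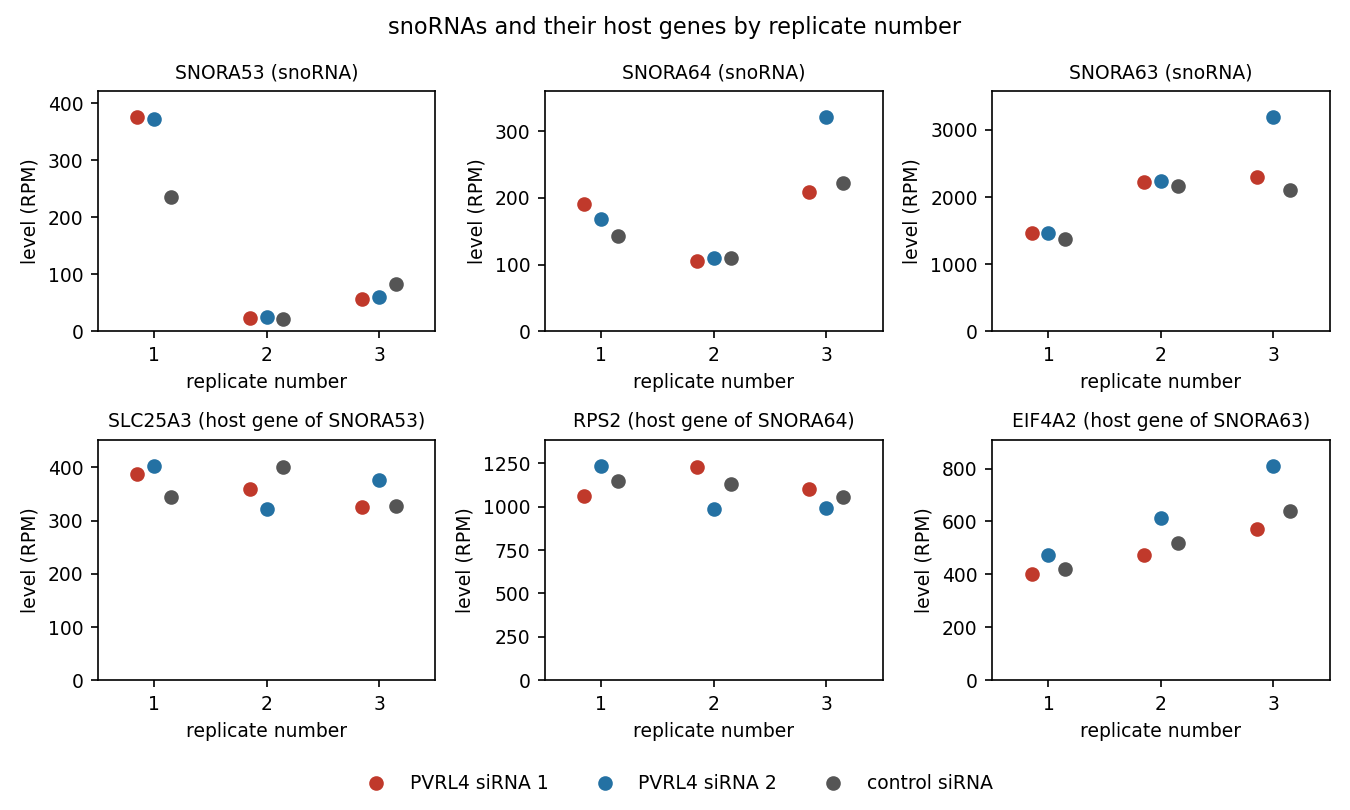
Level in RPM of SNORA53, SNORA64 and SNORA63 (top) and of the genes whose introns hold them, SLC25A3, RPS2 and EIF4A2 (bottom), in each library by replicate number, coloured by siRNA group, on linear axes from 0. SNORA53 has a mean of 328 RPM in the libraries numbered 1 and 23.1 RPM in those numbered 2 while SLC25A3 stays between 321 and 403 RPM, and SNORA63 and EIF4A2 are both lowest in the libraries numbered 1.

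SNORA64, a guide for the large ribosomal RNA, averaged 167, 108 and 251 RPM in the libraries numbered 1, 2 and 3 (adjusted p = 0.000114), and 216 RPM in number 3 without siRNA 2 replicate 3. Its host RPS2 had 989 to 1237 RPM in the 9 libraries (adjusted p = 0.563). Number 2 held its lowest libraries in every group. SNORA63 averaged 1430, 2210 and 2534 RPM (adjusted p = 0.000411), but 2203 RPM in number 3 without that library, close to number 2. The libraries numbered 1 were lowest in every group at 1458, 1460 and 1372 RPM with siRNA 1, siRNA 2 and control. Its host EIF4A2, a translation initiation factor gene, differed by number too (adjusted p = 0.000412), averaging 432, 535 and 674 RPM in numbers 1, 2 and 3, and was also highest in siRNA 2 replicate 3, at 811 RPM.

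SNORA9, from an intron of SNHG15, averaged 23.6, 48.3 and 70.3 RPM in numbers 1, 2 and 3 (adjusted p = 0.00105), and 45.7 RPM in number 3 without siRNA 2 replicate 3, so its difference lies between number 1 and the others. SNORA23, from IPO7, a nuclear import gene, averaged 75.4, 72.3 and 151 RPM (adjusted p = 0.00128), and 122 RPM in number 3 without that library. SNORA38, from PRRC2A, averaged 4.92, 5.54 and 12.7 RPM (adjusted p = 0.00525), and 9.21 RPM in number 3 without it. The other 7 called SNORA genes had a highest mean 1.32 to 2.09 times the lowest, and 1.34 to 1.57 times without siRNA 2 replicate 3.

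**Figure D5:**
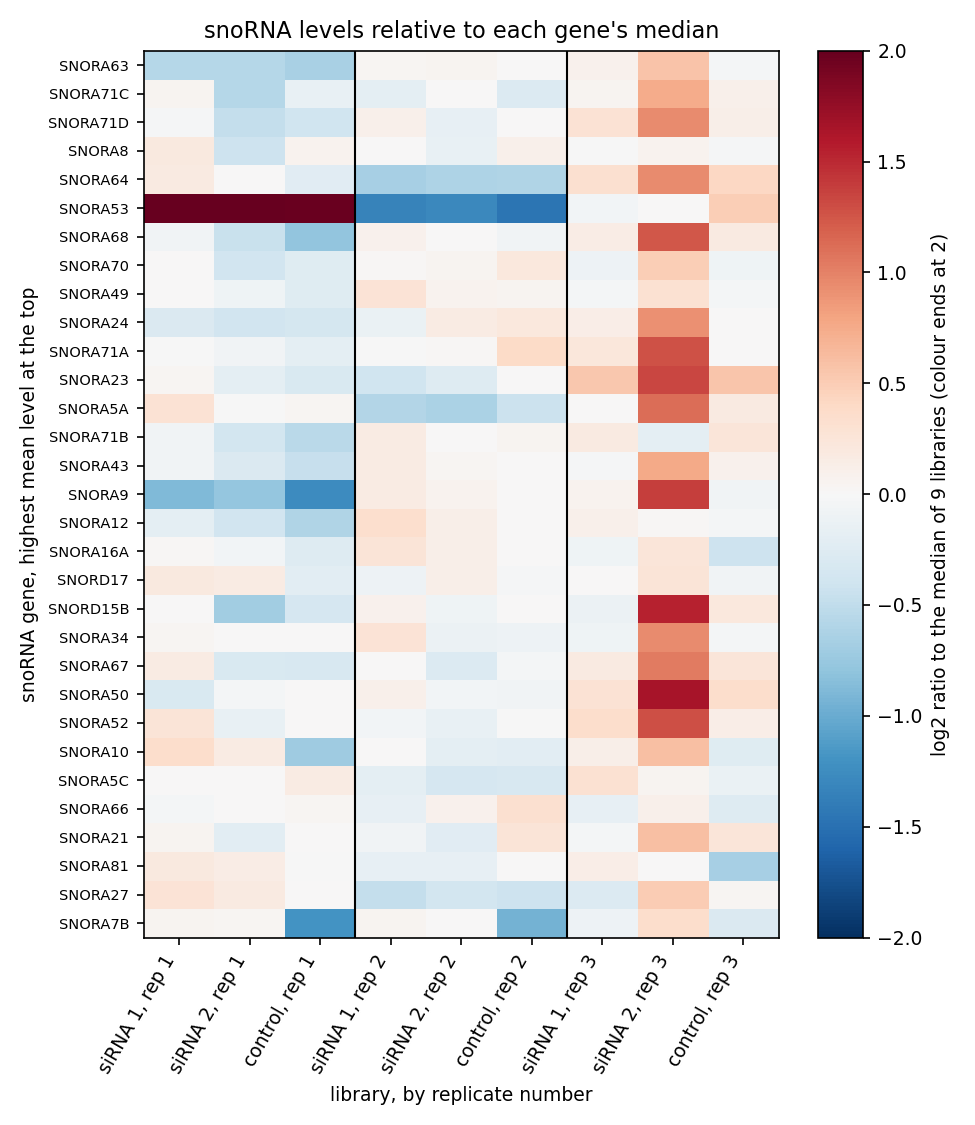
Level of each snoRNA gene that averaged 10 RPM or more (rows, highest mean at the top) in the 9 libraries (columns, grouped by replicate number), as the log2 ratio to the gene's median over the libraries. SNORA53 is high in the 3 libraries numbered 1 and low in those numbered 2, and PVRL4 siRNA 2 replicate 3 is the high column for most other rows.

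Host genes were read beside all snoRNAs that had one in the table. Of 57 such snoRNAs, 56 had a tested host, in 46 distinct genes. The replicate number called 10 of these snoRNAs, and in 1 of the 10, SNORA63, the host was called as well. Of the 46 distinct hosts 4 were called, where 9.77% of all genes were, so 1 in 10 is near that share. In 4 further snoRNAs the host was called and the snoRNA was not. These are SNORA14B in TOMM20, SNORA31 in TPT1, SNORA56 in DKC1 and SNORA81 in EIF4A2, which is also the host of SNORA63. An amplicon inside an intronic snoRNA reads the mature snoRNA and unspliced host RNA alike, so these cannot be told apart.

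Genes of proteins that carry or degrade these RNAs were read from lists. Without the block, limma called 0 of the 8 tested box H/ACA protein and assembly genes, 0 of the 11 box C/D genes and 0 of 12 tested long noncoding RNA genes with other names in any of the 3 comparisons. Of 13 nonsense-mediated decay genes it called 0 against control and 1, the exonuclease gene XRN1, lower with siRNA 2 than with siRNA 1 (limma adjusted p = 0.0269). Of 18 nuclear exosome genes it called 1, MPHOSPH6, an exosome cofactor gene, which had 49.9, 74.9 and 55.7 RPM with siRNA 2, 129, 152 and 132 RPM with siRNA 1 and 123, 145 and 135 RPM in control. Its siRNA 2 libraries lay below all 6 others, and it fell by 1.16 on the log2 scale against control (limma adjusted p = 0.000906) and by 1.20 against siRNA 1 (limma adjusted p = 0.000306). Over all genes, 0.645% were called lower with siRNA 2 against control and 2.46% against siRNA 1. The F test of the replicate number called 1 or 2 genes of each list, where 9.77% of all genes were called.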

How the data were processed

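Libraries were made from 100 ng of total RNA, extracted on silica columns, with an Ion AmpliSeq Transcriptome kit, per the labels' protocols. The kit reads a gene at a short amplicon without molecular identifiers. The authors deposited RPM values (read counts after scaling every library to one total) for 20812 genes. Per the submitters' processing notes the build was hg19. No source used here names the aligner, the counting tool or the use of strand. RPM fixes each library's total, so a change in total RNA is not visible.

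Whole reads were recovered from the RPM steps: 100% of values in every library were whole within 0.1 read, giving 10017130 to 10707777 reads per library. A floor of 3 reads lies at 0.280 to 0.299 RPM and covers counting error only. Tests used limma 3.58.1 (R 4.3.3) with a trended prior on log2(RPM + 1), which understates changes of low genes, for the 11158 genes averaging 1 RPM or more. All 9 libraries shared the spread. Two-sided p-values were adjusted by Benjamini-Hochberg over all genes, with a threshold of 0.05. With 3 against 3 libraries an exact permutation test cannot go below p = 0.1, so none was used. The fits were tested on simulated counts with a single dispersion for all genes, so that run does not cover the wider spread of the SNORA genes. Same-group libraries differed beyond counting noise (chi-square per degree of freedom 8.90 to 23.9), so none was treated as a copy.

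Libraries of the same number in different groups had correlated deviations from their group means (r of 0.252 to 0.417 in 9 pairs). Libraries of different numbers had r of -0.340 to -0.0275 in 18 pairs. Deviations from a group mean sum to 0, which pushes these values below 0 once same-number pairs are above it. They are therefore no separate evidence. The numbers were used as a block on this ground, though the labels do not say what they mark. Alternatives were a pseudocount of 0.1 or 5, a filter at 5 RPM or none, scaling by quantiles, TMM or median-of-ratios, limma without a trend, edgeR 4.0.16, DESeq2 1.42.0, the replicate block, fits of only the libraries compared, and each library left out. edgeR with the block, the block with each library left out, and snoRNA summaries without PVRL4 siRNA 2 replicate 3, were added after seeing the data.

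Members and gene lists were chosen with earlier results of these data known. Named were TUG1, H19, all called genes, the 5 higher and 5 lower with the smallest p in a comparison, the 4 highest of a class and the 6 smallest p by replicate number. Symbols matched RefSeq genes for 109 members directly and 17 by synonym. Host genes and sequences come from GENCODE release 29 on GRCh38, and no coordinates are given because the files use hg19.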

Additional observations from a re-analysis of the deposited data

Results flagged for a closer look

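TUG1 differed between the PVRL4 siRNAs: siRNA 2 was 0.56 above siRNA 1 on the log2 scale, tested directly (limma adjusted p = 0.00417), and higher in 3 of 3 libraries of the same number.

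CBR3-AS1, a matching antisense gene below the 1 RPM mean and therefore outside the 126, had at least 4 reads in every siRNA 1 library (5, 13 and 4 reads), against 2, 1 and 1 reads in control, with 0, 7 and 2 reads with siRNA 2. This difference was not tested.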

How the results depend on the processing

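The TUG1 calls and the count of 1 gene lower with siRNA 1 held in every setting that left out 1 library. Leaving out 1 library gave 0 to 1 gene higher with siRNA 1, 0 to 1 higher with siRNA 2 (both 1 without control replicate 3, SNORA7B), and 11 to 20 genes called by replicate number. The replicate number called 6 genes with no filter on low values and 6 with limma without a trend. Quantile scaling gave 2 genes higher for siRNA 2 against siRNA 1, LINC00052 being the second. DESeq2 gave 2 lower with siRNA 1 and 1 higher with siRNA 2. The replicate block gave 2 higher and 3 lower with siRNA 1, 1 higher and 1 lower with siRNA 2, and 2 higher for siRNA 2 against siRNA 1; edgeR with the block, chosen after seeing the data, gave 1 higher and 3 lower with siRNA 1, 1 higher and 0 lower with siRNA 2, and 3 higher between the siRNAs. The cause of these differences was not tested. The small H19 difference between the siRNAs ranged from -0.04 to 0.18 on the log2 scale over the libraries left out, and was below 0 without siRNA 1 replicate 2 (-0.0384) or siRNA 2 replicate 1 (-0.0141). Over the named genes, 645 values under other settings stayed on their side of the threshold, 12 passed it newly and 2 changed sign. Members near 1 RPM rest on few reads per library, which limits what a difference there can show.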
